A study of Homo sapiens with 10 samples.

Results

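Autophagy is the route by which a cell encloses its own material in a membrane and delivers it to lysosomes, and mitophagy is its selective form for mitochondria. The genes described here are 40 genes of this machinery, taken as every probe set whose platform annotation gave exactly 1 gene symbol found in that list. All 40 of them were on the array, out of 19775 genes with such a probe set, and they were read by 106 probe sets. Expression was measured on Affymetrix HG-U133 Plus 2.0 arrays in IMR90, a line of normal human fibroblasts from fetal lung. Senescent cells at 90 population doublings gave 5 arrays and proliferating cells at 28 population doublings gave the other 5. The senescent cells had been passaged until division stopped and were held for another 2 weeks, and the submitters judged senescence by p16, cyclin genes and senescence-associated beta-galactosidase. Cells of both states grew in 3% oxygen and 10% serum with no named genetic change or drug beyond penicillin and streptomycin, so the comparison is of replicative senescence in 1 cell line, and growth state cannot be told apart from passage number. Whether each array had a culture of its own is not stated in the labels, so the p-values below cover the spread between arrays, which may be technical.

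An autophagosome is built in steps. A kinase complex around ULK1 starts it, a lipid kinase complex around PIK3C3 and BECN1 marks the membrane with the lipid PI3P, and ATG2 and ATG9 proteins supply lipid for growth. A ubiquitin-like conjugation system then attaches proteins of the ATG8 family, which include LC3 and GABARAP, to the membrane, where cargo receptors bind them. Mitochondria are marked either by the kinase PINK1 or by receptors in their own outer membrane such as BNIP3, and transcription factors of the MiT family activate many genes of lysosomes and autophagy. An expression array reads messenger RNA only. Because MAP1LC3B and SQSTM1 proteins are themselves consumed by autophagy, their transcript levels do not measure its flux.

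Values are the deposited log2 values, on which a difference of 1 is 2-fold, and differences are senescent minus proliferating. Array medians lay between 3.05 and 3.12, and each array's 60th percentile between 4.64 and 4.77. Genes that mark the 2 states followed the labels. LMNB1, the lamin B1 gene, averaged 5.42 ± 0.36 in senescent and 10.93 ± 0.09 in proliferating cells (SD, n = 5 each). The proliferation marker MKI67 averaged 6.12 in senescent and 11.43 in proliferating cells. CDKN2A, the gene of p16, averaged 7.63 in senescent and 4.43 in proliferating cells. The submitters had judged senescence partly by p16, so CDKN2A is not independent of the labels. All 9 fibroblast markers were above the 60th percentile on every array, and all 4 leukocyte markers were below it on every array. The log2 values of 6 epithelial markers summed to between 24.2 and 25.9 on senescent and 28.9 and 29.6 on proliferating arrays, with EPCAM, KRT18 and KRT19 lower in senescent cells and the other 3 below the 60th percentile on every array. The 5 endothelial markers summed to between 20 and 20.4 on senescent and 19.1 and 19.7 on proliferating arrays, and TEK alone was above the 60th percentile. The 5 smooth muscle markers summed to between 33.5 and 33.9 on senescent and 33.3 and 34.8 on proliferating arrays, and DES was below that percentile throughout. A control for RNA integrity, the 3' minus 5' signal of ACTB, was 2.24 to 2.47 on senescent and 1.85 to 2.19 on proliferating arrays, a difference of 0.25 (exact permutation test, two-sided p = 0.0079, the smallest that 5 against 5 arrays can give). The part of these markers and of RNA integrity in the results below was not tested. Fits with the ACTB control as a covariate are given, but its ranges in the 2 states do not overlap. Such fits cannot fully separate RNA integrity from growth state.

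Most of the autophagy genes that could be tested were higher in senescent cells. Tests took in probe sets above the 40th percentile of their array on 5 or more of the 10 arrays, which 94 of the 106 were, and a gene is represented by the brightest of its tested probe sets. ATG2A and TFEB had no tested probe set. All 38 genes tested lay above the 40th percentile on all 10 arrays, so none was included through only 1 group. By limma's test with Benjamini-Hochberg adjustment over all 32732 tested probe sets and a threshold of 0.05, 26 of the 38 genes (68.4%) were higher in senescent cells, against 30.5% of all 12909 tested genes. Another 4 genes (10.5%), ULK2, ATG5, BNIP3 and BNIP3L, were lower, against 29.8% of all genes, and 8 did not pass. The median difference was 0.51 over the 38 genes and 0.04 over all tested genes. Transcript per cell and number of expressing cells cannot be told apart in RNA from whole cultures.

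**Figure D1:**
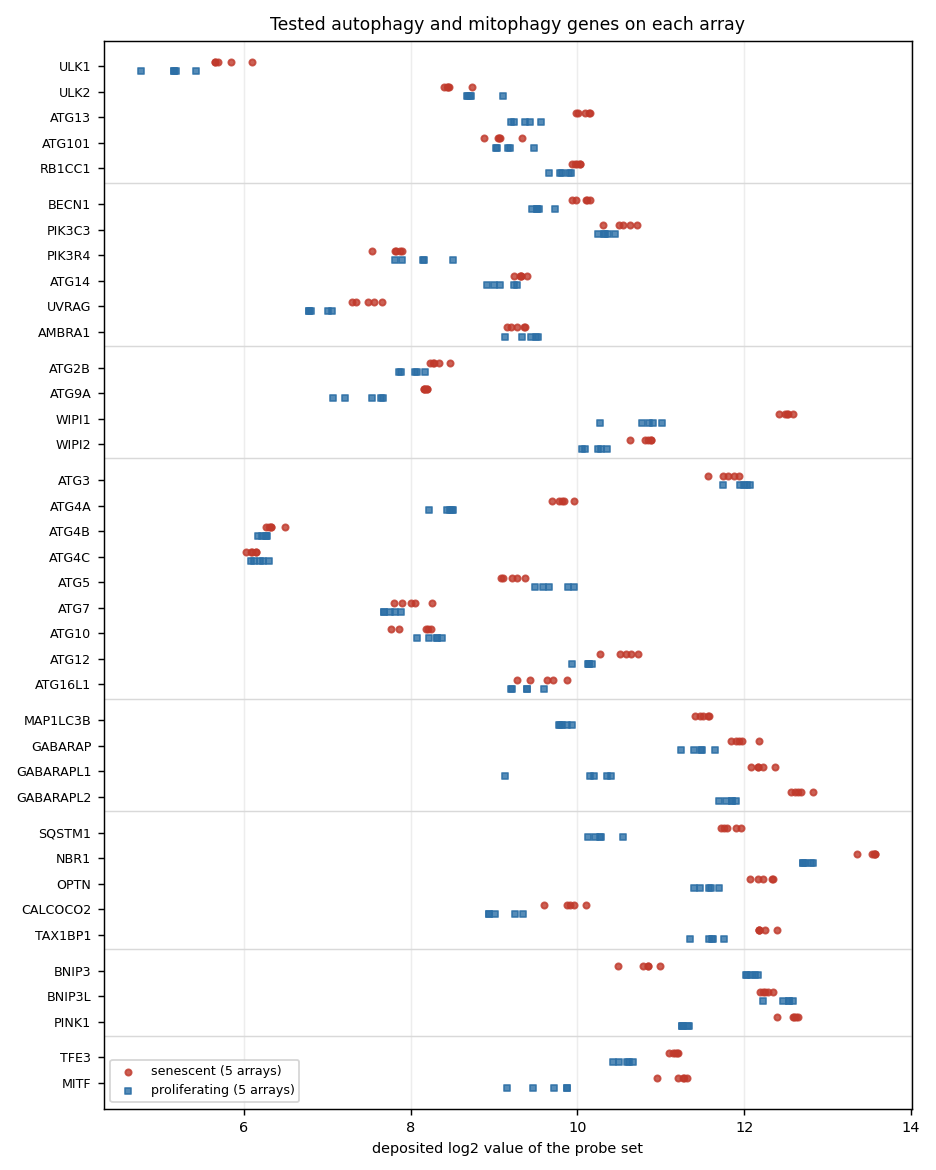
Deposited log2 value (horizontal axis) of the probe set representing each of the 38 tested genes (vertical axis, grouped by role), with 5 senescent arrays as red circles above 5 proliferating arrays as blue squares. The senescent points lie wholly to the right of the proliferating ones for 23 genes and wholly to the left for ATG5 and BNIP3. Levels of different genes are not comparable, since each probe set has its own response.

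Fewer of these genes differed by 2-fold or more. A difference of at least 2-fold was reached upward by 7 genes (18.4%, against 10.0% of all genes), namely WIPI1, ATG4A, MAP1LC3B, GABARAPL1, SQSTM1, PINK1 and MITF. BNIP3 was the single gene lower by 2-fold or more (2.63%, against 10.2% of all genes). Every senescent array lay above every proliferating array for 23 genes (60.5%, against 26.7% of all genes), and below for 2 (5.26%, against 25.1%). Of the 94 probe sets, 52 were higher (55.3%, against 26.9% of all tested probe sets) and 8 were lower (8.51%, against 26.2%), with a median difference of 0.31 against 0.03 over all probe sets. Of 28 genes with more than 1 tested probe set, 0 had called probe sets in both directions, and 15 had the same call for every one. The count of 4 lower genes moved with single arrays: it was 2 without senescent 2, senescent 4 or senescent 5, and 7 without proliferating 2. In these fits 28.4% to 29.9% of all tested genes were lower. With the ACTB control as a covariate, 20 genes were higher and 5 lower, beside 22.6% and 25.1% of all genes.

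**Figure D2:**
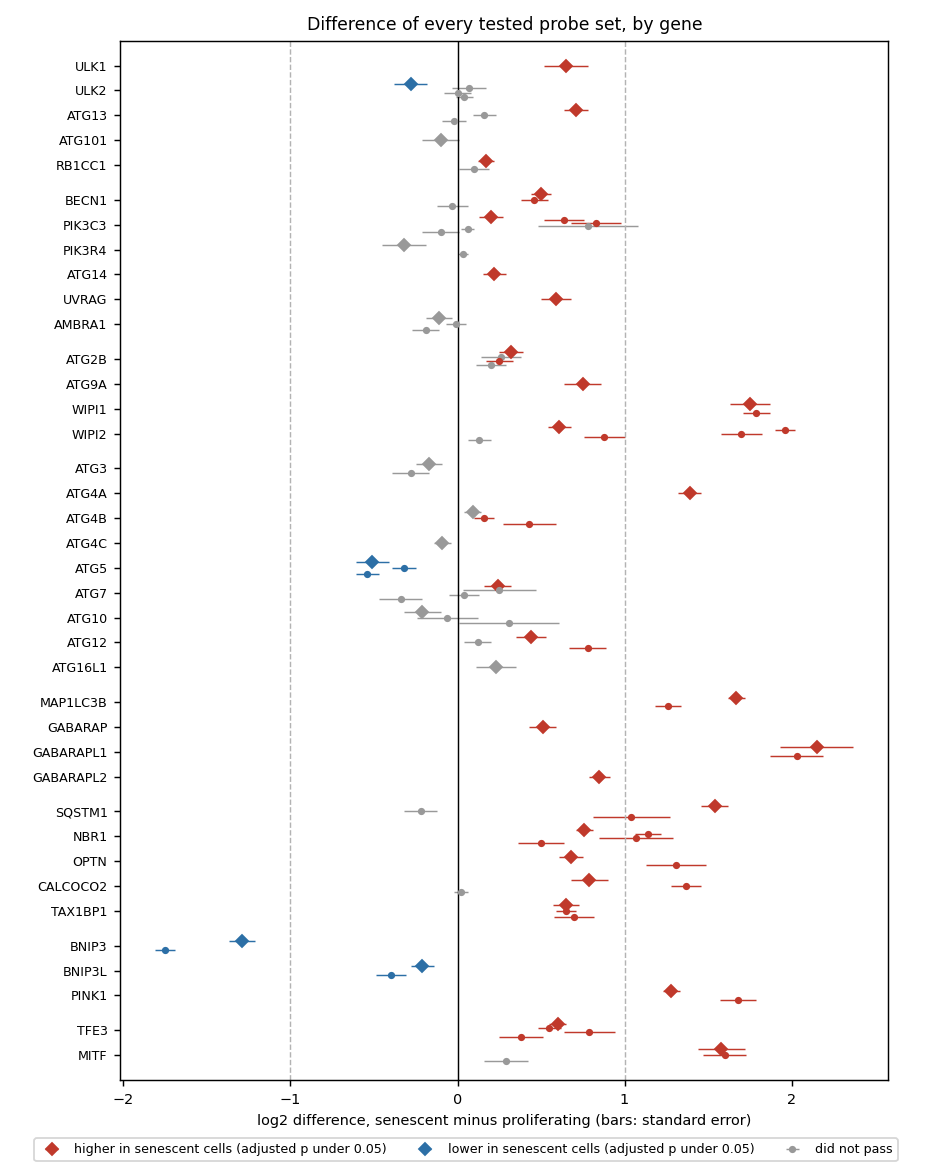
Log2 difference, senescent minus proliferating (horizontal axis, bars are standard errors), of each of the 94 tested probe sets, by gene; diamonds are the probe sets that represent a gene and small circles the others. Red marks 52 probe sets higher in senescent cells and blue 8 lower, at an adjusted p under 0.05, and no gene has both colours.

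The initiation complex was mixed. Of its 5 genes 3 were higher in senescent cells, 1 was lower and 1 did not pass, with a median difference of 0.17. Across all tested genes, 30.5% were higher and 29.8% lower. ATG13, the adaptor that links the kinase to its scaffold, had levels of 10.09, 10.14, 10.15, 9.98 and 10.01 on senescent 1 to 5, against 9.56, 9.20, 9.43, 9.37 and 9.24 on proliferating 1 to 5. All senescent arrays were thus above all proliferating ones, by 0.71 ± 0.07 (SE) on average (adjusted p = 1.6e-05). Its other 2 probe sets differed by 0.16 and -0.02 and did not pass. ULK1, the kinase that phosphorylates the downstream complexes, averaged 5.79 ± 0.20 in senescent and 5.14 ± 0.24 in proliferating cells, a difference of 0.65 ± 0.13 (adjusted p = 0.0015) without overlap. ULK2, its close relative, was lower.

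ULK2 had levels of 8.46, 8.45, 8.74, 8.43 and 8.40 on senescent 1 to 5, against 8.67, 8.72, 9.11, 8.71 and 8.69 on proliferating 1 to 5. Array 3 was the highest of each group, and the groups overlapped through senescent 3 alone. The difference of -0.28 ± 0.10 passed (adjusted p = 0.033), but not in 4 of the 10 fits that left out 1 array nor with arrays centred on reference genes, where it was -0.10. Such centring raised the median difference of all tested genes by 0.183, which bears on every value given with it below. The other 3 ULK2 probe sets differed by between 0 and 0.07 and did not pass. RB1CC1, the scaffold also called FIP200, averaged 9.99 ± 0.04 in senescent and 9.82 ± 0.10 in proliferating cells, a small rise of 0.17 ± 0.05 (adjusted p = 0.021). The nearest RB1CC1 arrays of the 2 groups were 0.01 apart, and its second probe set gave 0.10 and did not pass. The RB1CC1 call was also lost with the ACTB covariate (0.10) and with its probe sets averaged (0.13). ATG101, which stabilises ATG13, averaged 9.08 in senescent and 9.18 in proliferating cells and did not pass (adjusted p = 0.44).

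In the lipid kinase complex, 4 of 6 genes were higher, 0 were lower and 2 did not pass, with a median difference of 0.21. Across all tested genes, 30.5% were higher and 29.8% lower. BECN1, the regulatory core of the complex, had levels of 9.98, 9.94, 10.15, 10.11 and 10.10 on senescent 1 to 5, against 9.52, 9.45, 9.73, 9.52 and 9.54 on proliferating 1 to 5. The groups did not overlap, the difference was 0.50 ± 0.06 (adjusted p = 7.3e-05), and a second probe set gave 0.46. The other BECN1 probe set, below the 60th percentile on all arrays, gave -0.03 and did not pass. UVRAG, the subunit that takes the place of ATG14 in the endosomal form of the complex, averaged 7.47 ± 0.15 in senescent and 6.89 ± 0.14 in proliferating cells, higher by 0.59 ± 0.09 (adjusted p = 2.3e-04) without overlap.

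For the catalytic subunit the size depended on the probe set. PIK3C3, the lipid kinase itself, averaged 10.54 ± 0.15 in senescent and 10.34 ± 0.07 in proliferating cells by its brightest probe set, with overlapping arrays and a difference of 0.20 ± 0.07 (adjusted p = 0.046). Another 2 of its probe sets were higher by 0.64 and 0.83 without overlap, and with all its tested probe sets averaged the PIK3C3 difference was 0.40 (adjusted p = 8.5e-04). ATG14, which directs the complex to autophagosome sites, averaged 9.32 ± 0.06 in senescent and 9.10 ± 0.16 in proliferating cells (difference 0.22 ± 0.07, adjusted p = 0.029). The call of the brightest PIK3C3 probe set was lost in 8 and that of ATG14 in 6 of the 10 fits without 1 array, and with the ACTB covariate these differences were 0.04 and 0.09. PIK3R4, the regulatory kinase-like subunit, averaged 7.79 ± 0.14 in senescent and 8.11 ± 0.27 in proliferating cells and did not pass (adjusted p = 0.058), but was called lower in 5 of 21 alternatives. AMBRA1, which couples BECN1 to ubiquitin ligases, differed by -0.11 ± 0.08 (adjusted p = 0.28). Its difference was 0.07 with centring on reference genes, and it was called lower with the ACTB covariate (-0.31) and without proliferating 2 (-0.18).

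All 4 tested genes for lipid supply and PI3P binding were higher in senescent cells with no overlap between the groups, and their median difference was 0.68. Across all tested genes, 30.5% were higher, and 26.7% had every senescent array above every proliferating one. WIPI1, a propeller protein that binds PI3P on the growing membrane, had levels of 12.51, 12.49, 12.59, 12.53 and 12.42 on senescent 1 to 5, against 10.77, 10.90, 11.01, 10.86 and 10.27 on proliferating 1 to 5. The lowest proliferating array was number 5, and the senescent arrays lay close together. The difference of 1.75 ± 0.12 is 3.35-fold (adjusted p = 9.9e-07), and the second WIPI1 probe set gave 1.79. WIPI2, which recruits ATG16L1, was higher by 0.61 ± 0.07 (adjusted p = 4.7e-05), at 10.81 ± 0.11 in senescent and 10.20 ± 0.12 in proliferating cells. Its other probe sets gave different sizes, 1.96, 1.70 and 0.88 for those that passed and 0.13 for 1 that did not, so the size of the WIPI2 change depends on the probe set.

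ATG9A, the transmembrane scramblase of the vesicles that seed autophagosomes, had levels of 8.19, 8.17, 8.20, 8.16 and 8.16 on senescent 1 to 5, against 7.54, 7.67, 7.07, 7.21 and 7.64 on proliferating 1 to 5. The proliferating arrays spread more widely than the senescent ones, and the groups were apart (difference 0.75 ± 0.11, adjusted p = 2.7e-04). ATG2B, a lipid transfer protein, averaged 8.32 ± 0.09 in senescent and 8.00 ± 0.13 in proliferating cells (difference 0.32 ± 0.07, adjusted p = 0.0036), and with the ACTB covariate its difference of 0.14 did not pass. Of 4 ATG2B probe sets 2 passed, and those that did not gave 0.26 and 0.20. ATG2A, its paralogue, was not tested, with 2.34 ± 0.02 in senescent and 2.36 ± 0.07 in proliferating cells, below the 60th percentile on all arrays.

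Of the conjugation machinery, 3 of 9 genes were higher, a share near the 30.5% of all tested genes, 1 was lower and 5 did not pass, with a median difference of 0.09. ATG4A, a protease that trims ATG8 proteins and later releases them from membrane, stood apart from the rest. It had levels of 9.69, 9.78, 9.96, 9.84 and 9.82 on senescent 1 to 5, against 8.47, 8.49, 8.22, 8.51 and 8.43 on proliferating 1 to 5, a difference of 1.39 ± 0.07 or 2.63-fold (adjusted p = 7.6e-08). The other ATG4 proteases of the list differed little. ATG4B averaged 6.34 ± 0.09 in senescent and 6.24 ± 0.05 in proliferating cells (adjusted p = 0.15), although its dimmer 2 probe sets passed at 0.16 and 0.43, and its difference of 0.09 was 0.28, past the threshold, with centring on reference genes. That centring raised the median difference of all tested genes by 0.183. ATG4C, with the smallest difference in size of all 38 genes, had levels of 6.10, 6.14, 6.09, 6.14 and 6.03 on senescent 1 to 5, against 6.12, 6.08, 6.23, 6.19 and 6.30 on proliferating 1 to 5. The groups overlapped (difference -0.09 ± 0.05, adjusted p = 0.18), and the ATG4C difference was 0.10 with centring on reference genes.

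ATG5 and ATG12 form the conjugate that directs ATG8 attachment, and their transcripts moved in opposite directions. ATG5 had levels of 9.21, 9.28, 9.37, 9.11 and 9.08 on senescent 1 to 5, against 9.66, 9.49, 9.89, 9.59 and 9.96 on proliferating 1 to 5. Every senescent array was below every proliferating one, with a difference of -0.51 ± 0.10 (adjusted p = 0.0016), and the other 2 ATG5 probe sets fell by 0.32 and 0.54 on the log2 scale. ATG12 had levels of 10.64, 10.73, 10.58, 10.51 and 10.27 on senescent 1 to 5, against 10.13, 9.94, 10.14, 10.14 and 10.17 on proliferating 1 to 5. The groups did not overlap, and the difference was 0.44 ± 0.09 (adjusted p = 0.0014), with 0.78 and 0.12 from the other 2 probe sets, of which the smaller did not pass. With the ACTB covariate ATG12 differed by 0.31 and did not pass (limma adjusted p = 0.079), while ATG5 passed at -0.71.

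The activating and conjugating enzymes showed at most small differences. ATG7, the E1-like enzyme of both conjugation reactions, averaged 8.00 ± 0.17 in senescent and 7.76 ± 0.09 in proliferating cells (difference 0.24 ± 0.08, adjusted p = 0.037). That call was lost in 7 of the 10 fits without 1 array and with the ACTB covariate (0.10), and the other 3 ATG7 probe sets did not pass. ATG3, the E2-like enzyme for ATG8 proteins, averaged 11.79 ± 0.15 in senescent and 11.96 ± 0.13 in proliferating cells (adjusted p = 0.12). Its difference was -0.17 ± 0.08, and -0.28 by its second probe set, which did not pass either. It was 0.01 with centring on reference genes, and it was called lower in 4 of 21 alternatives, among them the ACTB covariate (-0.34) and the fit without proliferating 2 (-0.22). ATG10, the E2-like enzyme for ATG12, averaged 8.05 ± 0.22 in senescent and 8.26 ± 0.12 in proliferating cells (adjusted p = 0.13). ATG16L1, which anchors the conjugate on the membrane, averaged 9.59 ± 0.24 in senescent and 9.36 ± 0.16 in proliferating cells (adjusted p = 0.14). Its difference of 0.23 ± 0.12 was 0.45 with the ACTB covariate, and it was called higher with centring on reference genes (0.41), with array weights (0.33), without senescent 5 (0.31) and without both proliferating 2 and senescent 5 (0.37).

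All 4 ATG8 family genes were higher in senescent cells, by all 6 of their probe sets and with no overlap, and their median difference of 1.26 was the highest of the 8 role groups. Among all tested genes 30.5% were higher, and 26.7% had every senescent array above every proliferating one. Of all tested probe sets 26.9% were higher. GABARAPL1, an ATG8 protein known to be induced by FOXO factors in mouse muscle, had levels of 12.16, 12.22, 12.08, 12.17 and 12.37 on senescent 1 to 5, against 10.40, 10.35, 10.15, 10.20 and 9.13 on proliferating 1 to 5. Proliferating 5 was lowest by far, and without it the difference was 1.93 rather than 2.15 ± 0.22. The full difference is 4.45-fold (adjusted p = 1.4e-05), the greatest in size among the 38 genes, and the second GABARAPL1 probe set gave 2.03. MAP1LC3B, the LC3 protein most used as an autophagosome marker, had levels of 11.56, 11.47, 11.41, 11.50 and 11.58 on senescent 1 to 5, against 9.78, 9.82, 9.93, 9.88 and 9.79 on proliferating 1 to 5. The 2 groups were tight and far apart, by 1.67 ± 0.05 or 3.17-fold (adjusted p = 1.9e-09), and the second probe set gave 1.26.

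GABARAPL2, also called GATE-16, had levels of 12.56, 12.68, 12.65, 12.61 and 12.82 on senescent 1 to 5, against 11.90, 11.78, 11.85, 11.70 and 11.85 on proliferating 1 to 5, higher by 0.85 ± 0.06 (adjusted p = 7.5e-07). GABARAP, the founding member of its subfamily, averaged 11.97 ± 0.13 in senescent and 11.45 ± 0.15 in proliferating cells, a rise of 0.51 ± 0.08 (adjusted p = 4.9e-04). Senescent 5 had the highest level of each of the 4 ATG8 genes among the senescent arrays. MAP1LC3B, GABARAPL1 and GABARAPL2 were read only by probe sets that the array names as shared between transcripts, so near-identical genes such as MAP1LC3B2 and GABARAPL3 could contribute to the MAP1LC3B and GABARAPL1 signals.

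Promoter sequence is shown for the ATG8 genes with the greatest differences, whose windows hold different response motifs. The windows are RefSeq's for GRCh38.p14, 300 bases each, from 250 before to 50 after the annotated start, printed 5' to 3' on the gene's strand. GABARAPL1 lies at chr12:10212627-10212926 on the plus strand, with 51.7% G and C, and its capitals mark TGACGTCA, the full cyclic AMP response motif. MAP1LC3B lies at chr16:87392086-87392385 on the plus strand, with 75.7% G and C, and its capitals mark TGACNNNGC, the core of the antioxidant response motif.
GABARAPL1: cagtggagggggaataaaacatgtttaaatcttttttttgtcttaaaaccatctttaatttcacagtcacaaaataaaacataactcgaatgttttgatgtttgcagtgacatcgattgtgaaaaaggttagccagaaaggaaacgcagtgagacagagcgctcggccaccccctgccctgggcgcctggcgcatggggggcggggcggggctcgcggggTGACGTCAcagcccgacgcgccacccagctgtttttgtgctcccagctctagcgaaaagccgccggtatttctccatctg
MAP1LC3B: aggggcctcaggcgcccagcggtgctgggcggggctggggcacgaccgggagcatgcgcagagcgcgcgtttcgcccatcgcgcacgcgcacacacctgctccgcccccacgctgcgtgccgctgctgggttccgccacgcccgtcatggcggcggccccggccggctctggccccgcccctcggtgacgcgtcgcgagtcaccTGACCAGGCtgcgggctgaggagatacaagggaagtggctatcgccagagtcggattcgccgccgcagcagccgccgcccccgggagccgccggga
Windows were given for 36 of the 40 genes, 48 windows in all, and motifs were searched on both strands. TGACGTCA, searched for after the GABARAPL1 window had been seen, was in 2 of the 48 (4.17%, GABARAPL1 and MITF), against 1.85% of all 35116 windows in the table. TGACNNNGC was in 3 (6.25%, ATG101, MAP1LC3B and CALCOCO2), against 13.3%. TGANTCA, the AP-1 motif, was in 1 (2.08%, TFE3), against 7.71%, and GGGCGG, the GC box, was in 33 (68.8%, from 27 genes), against 45.0%. These matches describe letters in a window and were not read as binding sites.

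All 5 cargo receptor genes were higher in senescent cells with no overlap, against 30.5% of all tested genes higher and 26.7% without overlap in that direction. The median difference of the 5 receptor genes was 0.76. Such receptors bind ubiquitin or damaged cargo on one side and ATG8 proteins on the other. SQSTM1, the gene of p62, had levels of 11.76, 11.90, 11.79, 11.72 and 11.96 on senescent 1 to 5, against 10.27, 10.55, 10.28, 10.21 and 10.13 on proliferating 1 to 5. That is a difference of 1.54 ± 0.08, or 2.90-fold (adjusted p = 1.3e-07). Of the other tested SQSTM1 probe sets, both of which were dim, 1 passed at 1.04 and 1 gave -0.22 and did not pass. NBR1, a receptor related in domain make-up to SQSTM1, had levels of 13.57, 13.53, 13.57, 13.55 and 13.35 on senescent 1 to 5, against 12.80, 12.73, 12.83, 12.70 and 12.70 on proliferating 1 to 5. Its difference was 0.76 ± 0.05 (adjusted p = 1.1e-06), and all 4 NBR1 probe sets were higher.

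The remaining receptors, OPTN, CALCOCO2 and TAX1BP1, were higher as well. OPTN averaged 12.23 ± 0.12 in senescent and 11.55 ± 0.12 in proliferating cells (difference 0.68 ± 0.07, adjusted p = 2.2e-05), with 1.31 from its second probe set. CALCOCO2, also called NDP52, averaged 9.89 ± 0.18 in senescent and 9.10 ± 0.19 in proliferating cells, higher by 0.79 ± 0.11 (adjusted p = 1.6e-04). Its senescent arrays ran from 9.60 on senescent 5 to 10.10 on senescent 3, above the highest proliferating array at 9.35. TAX1BP1 averaged 12.24 ± 0.09 in senescent and 11.58 ± 0.15 in proliferating cells, and its 3 probe sets gave 0.65, 0.65 and 0.70. All 5 receptor calls passed under every alternative that measured them, with differences no lower than 0.43.

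The mitophagy genes changed in both directions, with PINK1 higher and the receptors BNIP3 and BNIP3L lower in senescent cells, and their median difference was -0.21. BNIP3, an outer membrane receptor that low oxygen induces through HIF1, had levels of 10.79, 10.84, 10.99, 10.85 and 10.49 on senescent 1 to 5, against 12.13, 12.03, 12.16, 12.08 and 12.02 on proliferating 1 to 5. The groups were more than 1 log2 unit apart at their nearest arrays, and the difference was -1.29 ± 0.08, or 2.45-fold lower (adjusted p = 5.5e-07). The second BNIP3 probe set fell by 1.75 on the log2 scale, or 3.37-fold lower (adjusted p = 6.1e-09). BNIP3L, the related receptor NIX, had levels of 12.35, 12.25, 12.29, 12.23 and 12.19 on senescent 1 to 5, against 12.54, 12.47, 12.54, 12.59 and 12.22 on proliferating 1 to 5. Proliferating 5 lay among the senescent arrays, and the others were above them. The difference of -0.21 ± 0.07 passed (adjusted p = 0.027) but was lost in 6 of the 10 fits without 1 array, with the ACTB covariate and with centring on reference genes (-0.03), while a second probe set fell by 0.40 (adjusted p = 0.0041). Both states were grown at 3% oxygen, per the labels, and a part of oxygen or HIF1 in these differences was not tested.

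PINK1, the kinase that builds up on damaged mitochondria and phosphorylates ubiquitin there, had levels of 12.59, 12.64, 12.62, 12.60 and 12.39 on senescent 1 to 5, against 11.25, 11.33, 11.27, 11.34 and 11.25 on proliferating 1 to 5. It was higher by 1.28 ± 0.05, or 2.43-fold (adjusted p = 2.3e-08), and its second probe set gave 1.68, or 3.21-fold. The BNIP3 window is shown because BNIP3 fell furthest and the window is among the 3 with CACGTG, the E-box letters that MYC and MiT proteins bind. It lies at chr10:131981874-131982173 on the minus strand of GRCh38.p14, with 80.7% G and C, and capitals mark CACGTG.
BNIP3: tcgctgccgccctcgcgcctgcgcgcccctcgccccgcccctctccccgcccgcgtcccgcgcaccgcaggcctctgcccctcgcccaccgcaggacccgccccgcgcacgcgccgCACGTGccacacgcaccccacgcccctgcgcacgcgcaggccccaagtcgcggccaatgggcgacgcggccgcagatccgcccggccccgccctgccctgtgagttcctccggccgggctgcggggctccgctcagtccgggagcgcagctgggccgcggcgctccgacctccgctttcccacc

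The MiT transcription factor genes that could be tested were both higher in senescent cells, with a median difference of 1.09. Among all tested genes 30.5% were higher. MITF, best known for its role in melanocytes, had levels of 11.28, 11.21, 11.26, 11.31 and 10.95 on senescent 1 to 5, against 9.72, 9.47, 9.87, 9.87 and 9.16 on proliferating 1 to 5. The lowest array of each group was number 5, and the groups stayed apart, by 1.58 ± 0.14 or 3.00-fold (adjusted p = 5.4e-06). A second MITF probe set was higher by 1.60, and another, dim one gave 0.29 and did not pass. TFE3, which moves to the nucleus when nutrients are short, had levels of 11.17, 11.15, 11.20, 11.19 and 11.10 on senescent 1 to 5, against 10.62, 10.59, 10.66, 10.50 and 10.43 on proliferating 1 to 5. All 4 TFE3 probe sets were higher, the brightest by 0.60 ± 0.05 (adjusted p = 3.8e-06). TFEB, the best studied of the family, was not tested: its brighter probe set averaged 2.45 ± 0.16 in senescent and 2.26 ± 0.04 in proliferating cells, below the 60th percentile on all arrays.

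MiT factors bind the E-box CACGTG, and their preferred sites extend it to TCACGTGA. CACGTG was in 3 of the 48 windows (6.25%, ATG14, ATG3 and BNIP3), against 7.26% of all windows. The longer TCACGTGA, which contains CACGTG, was in 1 window (2.08%), that of ATG3, against 0.98% of all windows. The ATG3 window is shown for that match, at chr3:112561913-112562212 on the minus strand of GRCh38.p14, with 59.0% G and C and CACGTG or TCACGTGA in capitals.
ATG3: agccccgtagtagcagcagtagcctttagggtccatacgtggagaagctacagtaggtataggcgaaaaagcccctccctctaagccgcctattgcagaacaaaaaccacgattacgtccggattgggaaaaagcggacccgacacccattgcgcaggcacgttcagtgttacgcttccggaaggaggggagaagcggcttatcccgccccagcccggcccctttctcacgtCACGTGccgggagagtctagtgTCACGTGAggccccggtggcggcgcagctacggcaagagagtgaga

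**Figure D3:**
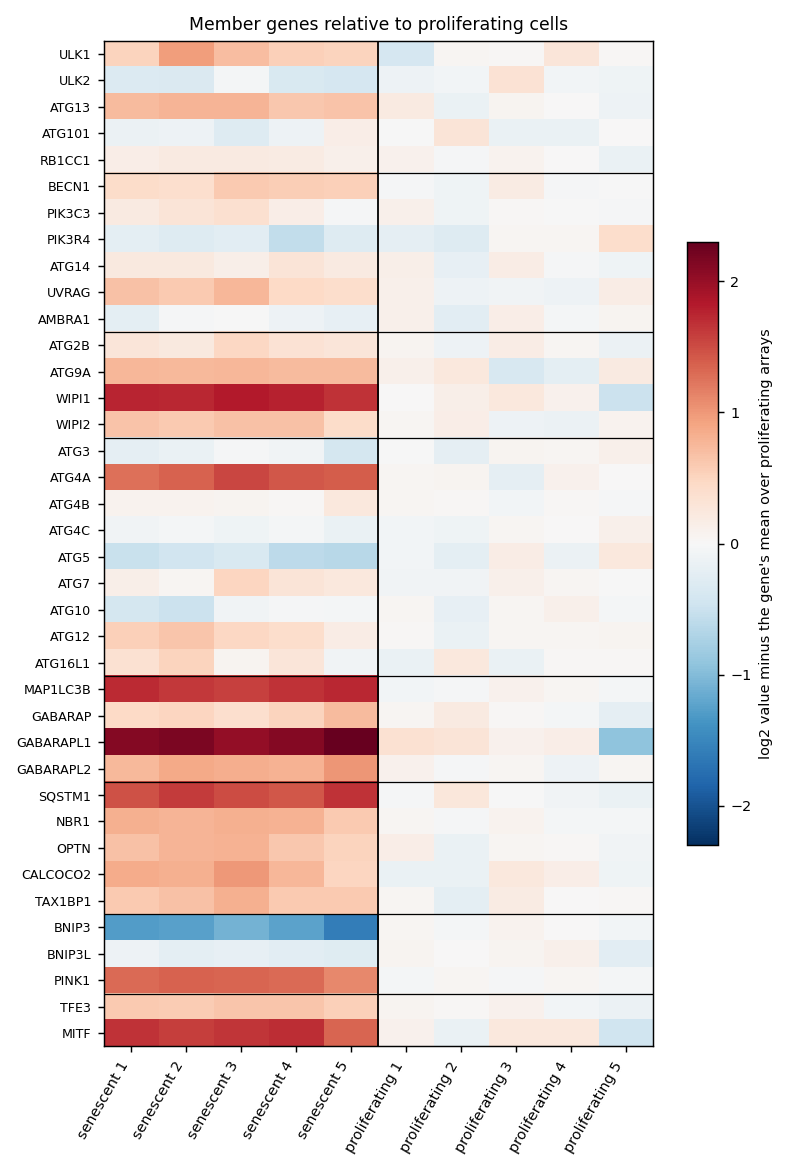
Log2 value minus the gene's mean over the proliferating arrays (colour scale) for the 38 tested genes by role group (vertical) on the 5 senescent and 5 proliferating arrays (horizontal). The strongest red blocks are WIPI1, ATG4A, the ATG8 genes GABARAPL1 and MAP1LC3B, SQSTM1, PINK1 and MITF, the strongest blue is BNIP3, and the single dark cell among proliferating arrays is GABARAPL1 on proliferating 5.

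Other genes of the pathway were higher more often than lower. Of 129 further entries in 7 lists, 120 were on the array and 110 tested, of which 54 (49.1%) were higher in senescent cells, 16 (14.5%) were lower and 40 did not pass, beside the 30.5% and 29.8% of all genes given above. Their median difference was 0.23. These lists were drawn up with earlier results of the same arrays known. They are described by counts, medians and single genes, and no list was tested as a set. Differences below are in log2, and each named change passed limma's test.

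Among the 15 tested receptors outside the 40 genes, 11 were higher (73.3%) and 1 was lower (6.67%), with a median difference of 0.45. Of all tested genes, 30.5% were higher and 29.8% lower. CALCOCO1, a receptor for endoplasmic reticulum and Golgi, averaged 8.54 ± 0.11 in senescent and 6.22 ± 0.35 in proliferating cells (difference 2.32 ± 0.15). CCPG1, another receptor of the endoplasmic reticulum, was higher by 1.99, TOLLIP by 1.10 and SEC62 by 0.86. The lower one was LGALS8 (-0.27), a lectin that senses damaged endosomes, alone in its direction. Regulators of membrane supply and of the lipid kinase had 8 of 13 higher (61.5%) and 1 lower (7.69%), with a median of 0.46. TP53INP1, a p53 target that binds ATG8 proteins, averaged 12.01 ± 0.08 in senescent and 9.88 ± 0.12 in proliferating cells (2.13 ± 0.07), its relative TP53INP2 was higher by 1.42, the lysosomal p53 target DRAM1 by 1.29 and BCL2L1 by 1.01. BCL2, which like BCL2L1 binds BECN1, was the lower one, at 2.80 in senescent and 3.57 in proliferating cells, below the 60th percentile on all arrays.

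Inputs from nutrient and energy sensing were 14 of 28 higher, 4 lower and 10 that did not pass, with a median of 0.22. The greatest differences were those of SESN3 and SESN2, sestrins that inhibit mTORC1 under stress. SESN3 averaged 7.30 ± 0.14 in senescent and 5.35 ± 0.43 in proliferating cells (1.95 ± 0.18), SESN2 was higher by 1.25 and the other sestrin, SESN1, by 0.85. PRKAB2, a subunit of the energy sensor AMPK, was higher by 1.00. DDIT4, a stress-induced inhibitor of mTORC1 signalling, averaged 10.63 ± 0.17 in senescent and 11.87 ± 0.46 in proliferating cells and was lower (-1.24 ± 0.20). Genes for fusion with the lysosome were 9 of 16 higher (56.2%) and 1 lower (6.25%), with a median of 0.30. The lysosomal calcium channel MCOLN1 (1.49), PLEKHM1 (1.20), EPG5 (0.96) and VPS41 (0.56) led these. VPS16, a subunit of tethering complexes, was the lower one (-0.29). Further ATG paralogues had 2 of 6 higher (33.3%), TECPR1 (0.69) and WDR45 (0.44), and 0 lower, with a median of 0.10. Other transcriptional regulators had 3 of 11 higher (27.3%), DDIT3 (1.12), FOXO4 (1.00) and TFEC (0.16), and 0 lower, with a median of 0.08. The shares of higher genes in these lists were near the 30.5% of all tested genes, of which 29.8% were lower. FOXO4 and TFEC were below the 60th percentile on all arrays.

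Mitophagy and mitochondrial dynamics was the list with more lower than higher genes. Of its 21 tested genes 7 were higher (33.3%), 9 were lower (42.9%) and 5 did not pass, with a median of 0.01. The share of higher genes was near the 30.5% of all tested genes, and 29.8% of all tested genes were lower. SPATA18, a p53 target implicated in mitochondrial quality control, averaged 7.99 ± 0.10 in senescent and 4.38 ± 0.53 in proliferating cells, a difference of 3.61 ± 0.22. BCL2L13, an outer membrane receptor, was higher by 0.96, and USP30, a deubiquitinase of the mitochondrial outer membrane, by 0.85. The fission adaptor MFF was lower (-0.75 ± 0.07), as was PHB2 (-0.74), an inner membrane receptor.

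**Figure D4:**
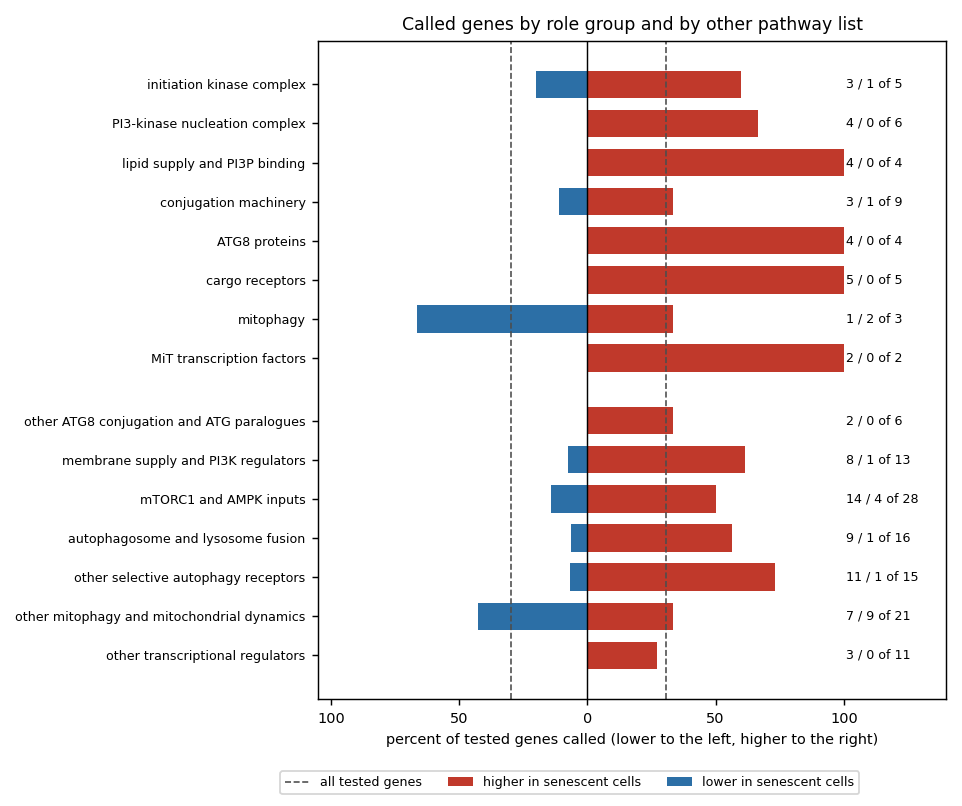
Percent of tested genes called higher (red, to the right) and lower (blue, to the left) in senescent cells for the 8 role groups (top) and the 7 further lists (bottom), with counts higher / lower of tested at the right; dashed lines are the shares of all tested genes, 30.5% higher and 29.8% lower. All tested genes were higher in 4 small role groups of 2 to 5 genes, and the lower bar is the longer one for the mitophagy genes and for the list of other mitophagy and mitochondrial dynamics genes.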

How the data were processed

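RNA of 5 senescent and 5 proliferating IMR90 samples was extracted with Trizol and hybridised to Affymetrix arrays, per the labels' protocols. The deposited table holds log2 values of 54675 probe sets on 10 arrays. Partek and GCRMA, a method of background correction and summary, are listed in the submitters' processing notes. Their settings were not given in the sources used here, and base 2 was inferred from the spread of values. Detection calls and scan dates were not used here.

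Probe sets were named from the platform annotation, with symbols updated through gene identifiers (RefSeq, GRCh38.p14): 41091 had 1 symbol, 1801 several and 11721 none, and 62 controls were left out. Probe sets above the 40th percentile of their array on 5 or more arrays were tested with limma 3.58.1 (lmFit, eBayes; R 4.3.3), on the values as deposited. Single control values had an exact permutation test over 252 assignments of arrays. The code was tested on simulated data.

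The members, gene lists, tests and alternatives were chosen with earlier results of these data known. All members are named, with values on every array for those that changed at least 2-fold, for the smallest difference and for further members of the role groups (more than the 1 or 2 per group set at first), and up to 4 called genes of each other list by size. SESN1, PHB2, BCL2, LGALS8 and VPS16 fall outside this rule and were named after their values were seen. The VPS15, PACER and TMEM55B entries are other names for PIK3R4, RUBCNL and PIP4P1 and found no probe set. Alternatives were other filters on low values, 2 other scalings, a replicate block, another variance model, array weights, the ACTB covariate, other choices of probe set and each array left out. Same-numbered arrays did not deviate together, so the numbers were not taken to pair samples.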

Additional observations from a re-analysis of the deposited data

Results flagged for a closer look

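Of 76 groups of 5 arrays, 1 per tested gene and state, 10 had an array set apart from the other 4 by Dixon's criterion, which chance meets in about 1 of 20 groups. Senescent 5 was the array set apart in 5 of them. It was low for WIPI2 at 10.63 (the others 10.81 to 10.88), NBR1 at 13.35 (13.53 to 13.57), PINK1 at 12.39 (12.59 to 12.64) and MITF at 10.95 (11.21 to 11.31), and high for ATG4B at 6.49 (6.26 to 6.32). Without senescent 5 the differences were 0.65 for WIPI2, 0.80 for NBR1, 1.32 for PINK1 and 1.65 for MITF, and all 4 calls were kept.

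ULK2 was set apart upward in both states, at 8.74 on senescent 3 (the others 8.40 to 8.46) and 9.11 on proliferating 3 (8.67 to 8.72). PIK3R4 was low on senescent 4 at 7.54 (7.81 to 7.89). GABARAPL1 was low on proliferating 5 at 9.13 (10.15 to 10.40), and without that array its difference was 1.93. ATG12 was low on proliferating 2 at 9.94 (10.13 to 10.17), and without that array its difference was 0.40, which still passed.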

How the results depend on the processing

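Of 30 called genes, 25 kept their call in all 10 fits that left out 1 array, and 21 kept it under every alternative that measured them. Leaving out 1 array gave 46 to 49 probe sets higher and 6 to 12 lower, 23 to 26 genes higher and 2 to 7 lower, a median difference of 0.48 to 0.53, and 50 to 56 of the other pathway genes higher and 13 to 15 lower. In these fits 28.6% to 30.4% of all tested genes were higher and 28.4% to 29.9% lower. With arrays centred on 17 reference genes the median of all tested genes moved by 0.183, the share of all calls that were higher was 70.7% rather than 50.6%, and that among the autophagy genes was 93.3% rather than 86.7%. Under this centring 4 probe sets and 2 genes of the 40 were lower, the median was 0.69 and 6 other pathway genes were lower. All tested genes were then 51.5% higher and 21.3% lower. ATG101 (0.08), AMBRA1 (0.07), ATG3 (0.01) and ATG4C (0.10), none of them called, changed sign there. The median was 0.43 with the ACTB covariate, where ATG101 was 0.19, and 0.42 with a gene's probe sets averaged, where ATG10 was 0.02. Without probe sets named as shared between transcripts, only 28 genes could be tested: 21 probe sets were higher and 2 lower, 16 genes were higher and 2 lower, the median was 0.35, 10 other pathway genes were lower, and ULK2 (0.04) and BECN1 (-0.03), read there by dimmer probe sets, changed sign. In that fit 30.3% of all tested genes were higher and 27.3% lower. Without proliferating 2 and senescent 5, at an end of the second principal component and chosen after seeing the data, 25 genes were higher and 4 lower. Of all tested genes 30% were higher there and 29.2% lower. With the replicate block 24 genes were higher and 4 lower, against 29.1% and 28.6% of all tested genes, and PIK3C3 and ATG14 lost their call. Correlations of same-numbered arrays were -0.06 to 0.09, and not every array correlated best with its own number. Other causes of lost calls were not tested. Dim probe sets limit the rest: 12 of the 94 tested were never above the 60th percentile.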

Other observations

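A probe set annotated to both GABARAPL3 and GABARAPL1 was left out by the rule of a single symbol. It had levels of 14.20, 14.25, 14.28, 14.18 and 14.10 on senescent 1 to 5, against 12.92, 12.97, 12.97, 12.79 and 12.40 on proliferating 1 to 5. The groups did not overlap, the difference was 1.39 ± 0.11 (limma adjusted p = 1.7e-06), and proliferating 5 was again the lowest array, as for the GABARAPL1 probe set described above.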
